A study of Mus musculus with 12 samples.

Results

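Mitochondrial proteases and chaperones were followed with the haem synthesis gene Alas1 in livers of C57BL/6N mice at 3 ages. The set held 10 genes of the 53465 in the count table: Clpx, Clpp, Lonp1, Hspd1, Hspe1, Hspa9, Trap1, Afg3l2, Yme1l1 and Alas1. The members were chosen by their size-normalised counts across the 12 livers, with the age differences given here already known, so those differences are a description and carry no p. Young livers came from animals of 3 months, middle-aged livers from animals of 12 and aged livers from animals of 18 months, with 4 livers per age and 1 liver per animal. The study's methods give male C57BL/6N mice fed ad libitum and name no treatment or genetic change. They describe animals of the authors' institute, and whether they cover these 12 libraries is uncertain, for the reasons given below.

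Most mitochondrial proteins are made in the cytosol, imported through membrane channels and folded inside. Hspa9 pulls incoming chains across the inner membrane, the Hspd1 and Hspe1 chaperonin folds them, and Trap1 assists as a further matrix chaperone. Clpx is a ring-shaped unfoldase that feeds proteins to the Clpp peptidase, while Lonp1 unfolds and cuts matrix proteins by itself, and Afg3l2 and Yme1l1 are inner membrane proteases facing the matrix and the intermembrane space. Alas1 makes the first, rate-limiting step of hepatic haem synthesis inside mitochondria, and its protein is a known substrate of both the Clpx and Clpp complex and Lonp1.

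The libraries held 8124312 to 10527159 gene counts, and all 10 genes passed the filter on low counts in each comparison. The tissue label matched the data: the 6 hepatocyte markers summed to between 68148 and 108650 CPM (counts scaled to a common library total) in every library. Young replicate 3 and middle-aged replicate 1 had the most genes detected, 22284 and 19982 against a median of 16916, and mitochondrially encoded genes took 19.2% of the counts in young replicate 2 and at most 10.7% in the others. Spike-in profiles fell into 2 sets, replicates 1 and 2 against replicates 3 and 4 of each age, which correlated at 0.997 or more within a set and at 0.925 or less between sets over 31 spike-ins. The series' design text gives 3 replicates per age where the labels give 4. The preparation text in the labels mentions no middle-aged liver, and the methods describe the RNA-seq of all 3 ages as retrieved from a public atlas, so the making of these libraries is uncertain. In whole liver, fewer cells of a type and less RNA per cell cannot be told apart.

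Promoter windows of 300 bases, from 250 before to 50 after an annotated start, were available from RefSeq (GRCm38.p6) for 8 of the 10 genes. Hspe1 and Hspd1 lie head to head on chromosome 1, and their annotated genes overlap between 55088132, the start of Hspe1, and 55088243, the outer end of Hspd1. The Hspe1 window shared 285 of its 300 bases with 1 of the 2 Hspd1 windows. Clpx (ENSMUSG00000015357) spans chr9:65294260-65330658 on the plus strand and Alas1 (ENSMUSG00000032786) chr9:106233455-106248654 on the minus strand in GENCODE M21, GRCm38. Windows are shown for the chaperonin pair, whose genes are set side by side liver by liver below, and for Clpx and Alas1, the genes with the largest age differences, with 4 motifs searched on both strands in capitals: the heat shock element (GAANNTTC or TTCNNGAA), the amino acid response element (TGATGNAA), the NRF1 site (GCGCANGCG) and the D-box (TTATGNAA).
Hspe1, chr1:55087898-55088197, plus strand: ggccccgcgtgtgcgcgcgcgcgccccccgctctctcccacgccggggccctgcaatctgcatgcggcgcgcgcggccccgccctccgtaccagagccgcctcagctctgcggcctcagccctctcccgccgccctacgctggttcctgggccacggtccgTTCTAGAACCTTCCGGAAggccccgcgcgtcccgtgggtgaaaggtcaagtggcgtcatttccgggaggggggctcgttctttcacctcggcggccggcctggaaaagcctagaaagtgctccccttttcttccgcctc
Clpx, chr9:65294010-65294309, plus strand: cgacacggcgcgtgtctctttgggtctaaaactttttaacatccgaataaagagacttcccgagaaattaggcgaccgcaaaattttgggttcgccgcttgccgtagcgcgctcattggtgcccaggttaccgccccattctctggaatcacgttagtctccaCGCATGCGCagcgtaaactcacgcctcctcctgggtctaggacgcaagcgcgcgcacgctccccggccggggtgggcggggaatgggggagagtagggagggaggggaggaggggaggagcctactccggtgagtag
Alas1, chr9:106247681-106247980, minus strand: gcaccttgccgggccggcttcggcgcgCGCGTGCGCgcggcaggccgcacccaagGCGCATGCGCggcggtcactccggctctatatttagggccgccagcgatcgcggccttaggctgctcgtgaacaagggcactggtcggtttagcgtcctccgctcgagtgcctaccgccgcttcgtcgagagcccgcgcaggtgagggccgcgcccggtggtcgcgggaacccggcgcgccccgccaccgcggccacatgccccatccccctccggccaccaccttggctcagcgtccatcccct

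The Hspe1 window held 3 overlapping heat shock elements in 1 run of 18 bases, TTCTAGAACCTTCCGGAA. The run lay 89 to 72 bases before the RefSeq start used for the window, which differs from the gene start given above. At least 3 such matches were found in 0.256% of all 32851 promoter windows, and at least 1 in 15.1%. The same run, read from the other strand, lay in a Hspd1 window. The Clpp window held 1 heat shock element. Clpx held 1 NRF1 match, a motif found in 6.25% of windows, and the other Hspd1 window, not printed, also held 1. The 2 Alas1 windows overlap, and both held the same 3 NRF1 matches, of which the 2 that overlap are the same letters read on both strands. At least 3 NRF1 matches were found in 0.429% of all windows. No window of the 8 genes held the amino acid response element, found in 3.97% of all windows, or the D-box, found in 3.38%. A match is a string of letters, and none of these windows was measured for binding.

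Clpx, the unfoldase, was the 1 gene of the 10 whose 3 ages did not overlap. Its normalised counts, which are read counts divided by the library's size factor, were 1993, 1872, 2186 and 2514 at 3 months (replicates 1 to 4, in this order throughout), 1482, 1849, 1776 and 1437 at 12 months, and 2608, 2791, 3343 and 3197 at 18 months. Every middle-aged liver lay below every young one, and every aged liver lay above both. The group means were 2141 ± 279.9, 1636 ± 206 and 2985 ± 343 (SD, n = 4 each). Aged livers had 39.4% more Clpx than young livers (log2 fold change 0.48, standard error or SE 0.12) and 82.4% more than middle-aged livers (0.87, SE 0.12). It was 23.6% lower in middle-aged than in young livers, with a log2 fold change of -0.39 (SE 0.12). Within replicates 1 and 2 alone, the log2 fold change was 0.49 for aged against young and 0.70 for aged against middle-aged, and within replicates 3 and 4 it was 0.47 and 1.03. For middle-aged against young it was -0.21 in the first spike-in set and -0.56 in the second.

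Clpp, the peptidase that Clpx feeds, did not show this pattern. Its normalised counts were 512, 610.1, 552 and 555 at 3 months, 540.1, 455, 415 and 442 at 12 months, and 615, 495, 443 and 423 at 18 months. The ages overlapped, and the highest and the lowest aged liver spanned nearly the whole range of the 12 livers. The ratio of Clpx to Clpp per kilobase of exon within a liver was 1.35 ± 0.211 at 3 months, 1.25 ± 0.25 at 12 months and 2.19 ± 0.565 at 18 months (SD, n = 4). It ran from 1.48 to 2.65 in aged livers and from 1.07 to 1.59 in young ones, so that aged replicate 1, at 1.48, lay inside the young range.

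**Figure D1:**
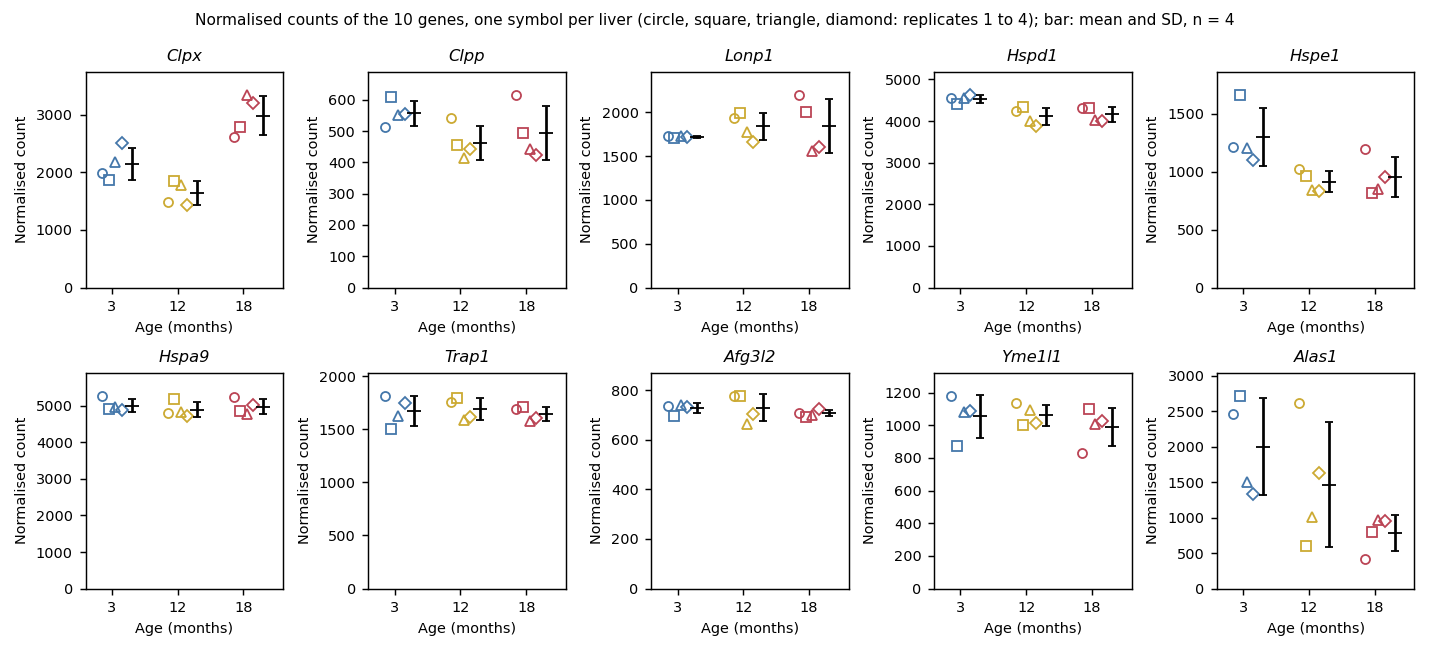
Normalised counts of each gene (y axis, from 0) against age in months (x axis), 1 symbol per liver, with the mean and SD of 4 livers beside them. Clpx separates into 3 levels, Alas1 is lower in every aged than in every young liver, and Lonp1 values lie closest together in young livers.

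Alas1, the haem synthesis enzyme, had the widest spread of the 10 genes at each age, with coefficients of variation of 34.3%, 60.1% and 32.3%. Its normalised counts were 2457, 2715, 1499 and 1334 at 3 months, 2622, 596, 1015 and 1627 at 12 months, and 422, 800, 962 and 956 at 18 months. All aged livers lay below all young ones, while the middle-aged livers ran from 596 to 2622, across both. The means were 2001 ± 687 at 3 months and 785 ± 254 at 18 months (SD, n = 4), and the log2 fold change was -1.35 (SE 0.45). That log2 fold change was -2.08 within replicates 1 and 2 and -0.56 within replicates 3 and 4. In young livers the first spike-in set held the 2 higher values. The summed level of the 6 erythroid markers also differed, from 2423 to 7881 CPM at 3 months, 1389 to 5522 at 12 months and 1031 to 2261 at 18 months, and its part in the Alas1 values was not tested. Per kilobase, Alas1 stood at 0.552 ± 0.247 of Clpx at 3 months and at 0.146 ± 0.0368 at 18 months (SD, n = 4).

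The chaperonin subunits were both highest in young livers, by very different margins. Hspd1 had normalised counts of 4565, 4403, 4559 and 4625 at 3 months, 4236, 4330, 3992 and 3892 at 12 months, and 4316, 4311, 4016 and 3998 at 18 months. Every young liver lay above every older one, by a small step: the log2 fold change was -0.14 (SE 0.05) in middle-aged and -0.13 (SE 0.05) in aged livers. For middle-aged livers it was -0.06 within replicates 1 and 2, -0.23 within replicates 3 and 4 and -0.07 with an offset for exonic length. For aged livers these values were -0.05, -0.20 and -0.09. Hspd1 was called in 0 of 22 alternative settings in both comparisons. Hspe1, the lid subunit, had 1213, 1661, 1207 and 1102 at 3 months, 1021, 960, 845 and 834 at 12 months, and 1198, 819, 853 and 956 at 18 months. All middle-aged livers lay below all young ones, with a log2 fold change of -0.50 (SE 0.15), and 1 aged liver reached the young range.

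The highest Hspe1 count came from young replicate 2, the library with the most mitochondrially encoded RNA. Without it the log2 fold change for middle-aged against young was -0.36 and Hspe1 was not called. Hspe1 is the second shortest gene of the set, at 1474 exonic bases, and fold changes for middle-aged against young went with exonic length over 8888 genes (Spearman's rho 0.368, across genes, which are not independent). With an offset for exonic length its log2 fold change was -0.33, and the part of length in it was not tested. Processed pseudogenes took little: their counts came to 0.0557% of the Hspe1 counts and 0.193% of the Hspd1 counts. Reads from the overlap of the 2 genes can be assigned only by strand, and the strand setting of the counting is not given in the sources used here.

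Lonp1, the self-contained matrix protease, had values closer together in young livers than in older ones. Its normalised counts were 1724, 1705, 1733 and 1722 at 3 months, a coefficient of variation of 0.679%, against 1932, 1996, 1777 and 1656 at 12 months and 2196, 2002, 1562 and 1605 at 18 months. The aged livers lay on both sides of the young ones: replicates 1 and 2 were above all of them and replicates 3 and 4 below. These are the 2 spike-in sets, and the log2 fold change for aged against young was 0.29 within the first and -0.13 within the second, against 0.10 (SE 0.11) over all. The young raw counts ran from 1339 to 1764, and random sampling of that many reads alone gives a wider spread than that seen. The closeness of the young values is therefore no measure of constancy between animals, and the difference in spread between ages was not tested.

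Hspa9, Trap1, Afg3l2 and Yme1l1 overlapped between all ages. Hspa9, the import motor chaperone, ran from 4732 to 5272 normalised counts over the 12 livers, and its log2 fold changes lay between -0.03 and 0.03 (SE 0.05 each). Trap1 ran from 1498 to 1813 and Afg3l2 from 665 to 777. Yme1l1 ran from 828 to 1180, with its lowest values in aged replicate 1 (828) and young replicate 2 (872). For these 4 genes no log2 fold change between ages was below -0.10 or above 0.03.

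**Figure D2:**
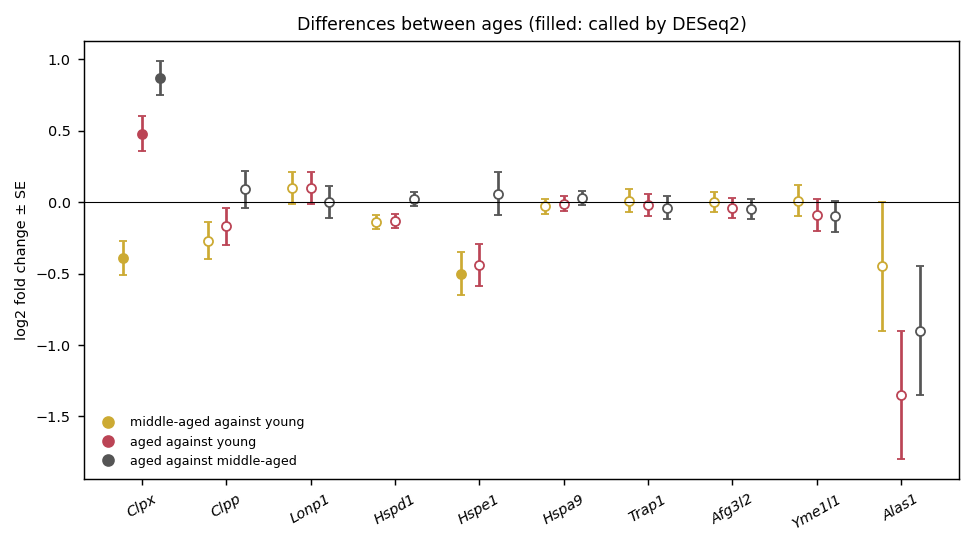
Log2 fold change with its standard error (y axis) of each gene in the 3 comparisons of ages, 4 livers per age, with genes called by DESeq2 filled. Clpx is filled in all 3 comparisons and Hspe1 in middle-aged against young, while Alas1 has the largest difference, -1.35, with a standard error of 0.45.

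Set beside the whole table, a gene was called when its Benjamini-Hochberg adjusted p from DESeq2 was under 0.05. For aged against young, 1 of the 10 genes was called, Clpx, which was higher, where 3.58% of all 13527 genes tested were called, 1.87% higher and 1.71% lower. For middle-aged against young, Clpx and Hspe1 were called, both lower, where 6.41% of 11333 genes were called, 3.51% higher and 2.90% lower. For aged against middle-aged, Clpx was called, as higher, where 1.14% of 10236 genes were called, 0.537% higher and 0.606% lower. The counts without overlap between the ages were 3, 3 and 1 of 10 in the same order, beside 7.53%, 16.0% and 6.55% of all genes tested. The median log2 fold change of the 10 genes was -0.07, -0.09 and 0.01, beside 0.00, 0.01 and 0.01 over all genes tested. The 3 comparisons share their livers, and nothing is read from these counts, since the genes were chosen on the same values.

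How far these calls held across settings differed. Clpx was called in all 22 alternative settings for aged against middle-aged, in 17 of 22 for aged against young and in 10 of 22 for middle-aged against young. For aged against young it was not called by edgeR, within replicates 1 and 2, or without young replicate 2, aged replicate 3 or aged replicate 4. For middle-aged against young, edgeR called none of the 10, with 3 at an unadjusted p under 0.05. In that comparison Clpx was also not called without young replicate 3 or 4 or middle-aged replicate 1, 3 or 4, and Hspe1 was not called without young replicate 2 or middle-aged replicate 2, 3 or 4. Hspe1 was called in 14 of 22 settings for middle-aged against young, and Alas1 in 5 of 22 for aged against young.

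Levels can be compared between genes only per length. Over the 12 livers, Hspd1 stood highest at a mean of 1616 normalised counts per kilobase of exon, followed by Hspa9 at 1151, Hspe1 at 716, Trap1 at 648 and Clpx at 645. Clpp (413) and Lonp1 (412) came next, then Alas1 (229.5), Yme1l1 (129) and Afg3l2 (73.1). Hspd1, at 1473 to 1750 per kilobase, did not overlap Hspa9, at 1098 to 1223. The ranges of Hspe1, Trap1 and Clpx overlapped, as did those of Clpp and Lonp1, and Alas1, from 68.3 to 439.8, reached from the Clpp range down to that of Afg3l2. Hspd1 exceeded Hspe1 per kilobase in every liver: the ratio of Hspd1 to Hspe1 per kilobase ran from 1.48 in young replicate 2 to 2.94 in aged replicate 2.

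Whether known partners moved together from liver to liver was described within each age. The genes and pairs were chosen with these counts known, so the correlations carry no p. Deviations of log2(normalised count + 1) from the age mean were correlated over the 12 livers for 6 pairs. The most negative value was that of Clpx and Clpp, with r = -0.59 and Spearman's rho = -0.52. Without the 2 livers farthest from the Clpx median it was -0.75, and within spike-in sets -0.63. Over the 8887 other genes, 93.3% had a correlation with Clpx at least as high as that of Clpp.

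The chaperonin subunits, with their shared promoter region, had r = 0.16 and rho = 0.19. Their correlation was 0.03 without the 2 livers farthest from the Hspd1 median and -0.51 within spike-in sets. Hspd1 and Hspa9 gave r = 0.54 and rho = 0.50. That value was 0.30 without the 2 farthest livers, 0.60 within spike-in sets and -0.05 with an offset for exonic length. The membrane proteases Afg3l2 and Yme1l1 gave r = 0.18 and rho = 0.36, with 0.28 and 0.19 under the same checks.

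Alas1 was paired with Clpx, the unfoldase that feeds Clpp, and with Lonp1, which both act on its protein. With Clpx it gave r = -0.42 and rho = -0.38, and the relation rested on few livers, since r was -0.05 without the 2 farthest from the Clpx median. Within spike-in sets it was -0.68. With Lonp1 it gave r = -0.47 and rho = -0.44, -0.25 without the 2 farthest livers and -0.67 within spike-in sets. Without middle-aged replicate 1 the Lonp1 and Alas1 value was -0.73.

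**Figure D3:**
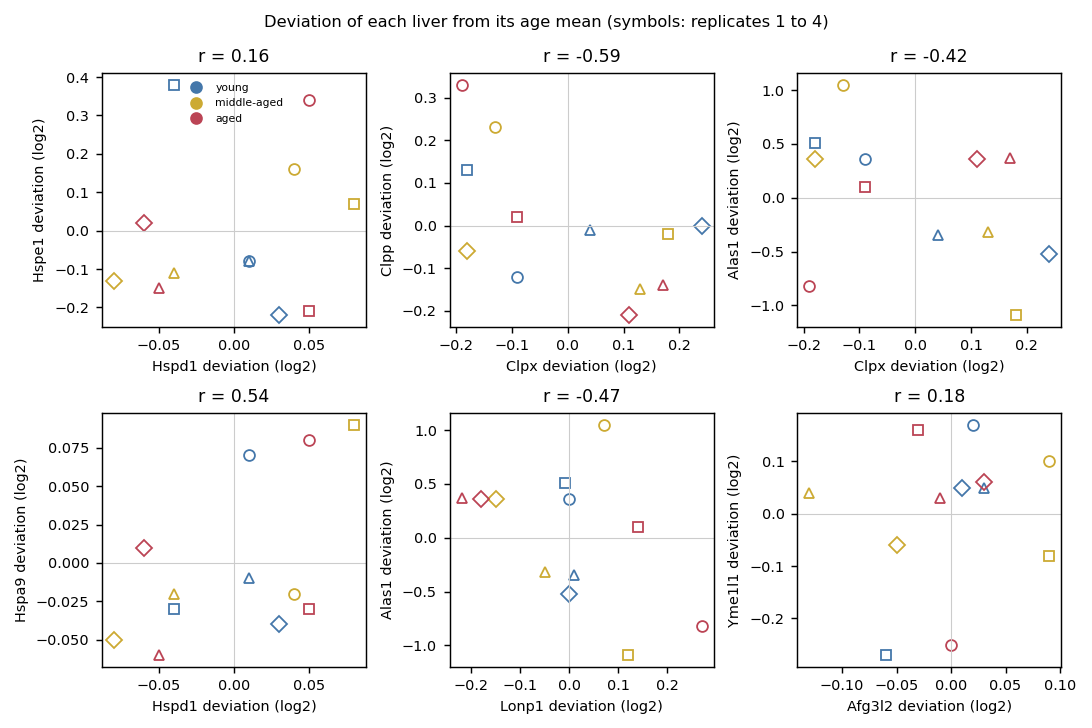
Deviation of each liver from its age mean (log2 units) for the first gene of a pair (x axis) and the second (y axis), coloured by age, with symbols for replicates 1 to 4. The 6 values of r run from -0.59 for Clpx and Clpp to 0.54 for Hspd1 and Hspa9.

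The surrounding pathway was described with 8 lists of 103 genes, none of them a member. The lists were chosen with earlier results of these data known, so their counts of calls and adjusted p are a description. For aged against young, 5 of 103 were called, 2 higher and 3 lower, with a median log2 fold change of -0.13. For middle-aged against young, 9 of 101 tested were called, 4 higher and 5 lower, with a median of -0.10. For aged against middle-aged, 5 of 101 were called, 1 higher and 4 lower, with a median of 0.01. The shares of all genes called and their medians are those given above. The count for aged against young rested on single libraries: it was 24 without aged replicate 1, 3 without young replicate 1 or middle-aged replicate 2, and 2 without young replicate 2, aged replicate 3 or aged replicate 4. For middle-aged against young it was 2 without young replicate 3, 3 without young replicate 2 or middle-aged replicate 4, 5 without middle-aged replicate 2 or 3, and 14 without aged replicate 1.

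No gene of the 14 other mitochondrial proteases was called by DESeq2 in any comparison. They included Oma1 and Spg7, the partner of Afg3l2, and their log2 fold changes ran from -0.20 to 0.18 for aged against young, -0.32 to 0.14 for middle-aged against young and -0.15 to 0.19 for aged against middle-aged. At an unadjusted p under 0.05 there were 1, 2 and 0 of 14. Clpx lay outside these ranges in all 3 comparisons, but it was chosen with its age differences known, so nothing is read from that. edgeR called no gene of any list for aged against young, with 33 of the 101 it tested at an unadjusted p under 0.05.

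Among 13 other mitochondrial chaperones, Grpel2 rose in middle-aged against young livers and Phb fell in aged against young livers. Grpel2, a nucleotide exchange factor of Hspa9, had 186 ± 46.8 against 273 ± 23.2 normalised counts (SD, n = 4), with a log2 fold change of 0.55 (SE 0.16) and a DESeq2 adjusted p of 0.0198, and was called in 13 of 22 alternative settings. Phb, a subunit of the inner membrane prohibitin ring that holds Afg3l2, had 1278 ± 88.3 against 1014 ± 112, with a log2 fold change of -0.33 (SE 0.10) and a DESeq2 adjusted p of 0.0346, and was called in 8 of 22. Its partner Phb2 was not called, with a log2 fold change of -0.11.

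Of 13 import channel genes, 1 was called for middle-aged against young and 1 for aged against young. Their median log2 fold changes were -0.20 and -0.16, beside 0.01 and 0.00 over all genes tested. Tomm7, a small outer membrane subunit, fell in middle-aged livers, with 285 ± 81 against 181 ± 17 normalised counts, a log2 fold change of -0.66 (SE 0.21) and a DESeq2 adjusted p of 0.0349, and was called in 9 of 22 settings. Timm23, the inner membrane channel itself, had a call in aged livers that was lost in nearly every other setting, with 433 ± 21.2 against 353 ± 33, a log2 fold change of -0.29 (SE 0.09) and a DESeq2 adjusted p of 0.0492, and was called in 2 of 22. Tomm7 has 1125 exonic bases, Timm23 1786 and Smdt1, given next, 1479, and the part of length in their values was not tested. Among the 11 substrates and partners of the proteases, Smdt1, a calcium uniporter subunit cleared by Afg3l2 when unassembled, fell in middle-aged livers, with 800.0 ± 78.4 against 609 ± 27.4 and a log2 fold change of -0.39 with an SE of 0.11 (adjusted p = 0.0144 by DESeq2), and was called in 13 of 22. Its highest count, 909, also came from young replicate 2.

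Of 13 regulators of mitochondrial stress responses, 2 were called for aged against young, with a median log2 fold change of 0.03, and 2 of the 12 tested for aged against middle-aged, with a median of 0.09. Atf5, a transcription factor linked to the mitochondrial unfolded protein response, rose in aged livers, with 4470 ± 416 normalised counts at 3 months, 4450 ± 267 at 12 months and 5799 ± 523 at 18 months. Its log2 fold change was 0.38 (SE 0.09) against both younger ages, with DESeq2 adjusted p of 0.00309 against young and 0.00593 against middle-aged livers. It was called in 19 of 22 alternative settings for aged against young and in 15 of 22 for aged against middle-aged. Fgf21, a hormone released by stressed liver, had 0 to 1.18 normalised counts at 3 months, 0.883 to 8.08 at 12 months and 9.03 to 33.2 at 18 months. These were too few in young livers for a fold. It was called for aged against young, also in each of the 18 alternative settings that tested it, and fell under the count filter in both other comparisons. Its counts came mostly from aged livers, so it passed that filter mainly through the group where it is high. Nothing is read from its call, which is 1 of the 2 given above for aged against young. Foxo3, a stress-responsive transcription factor, fell between 12 months (443 ± 23.7) and 18 months (301 ± 48.3), with a log2 fold change of -0.56 (SE 0.12) and a DESeq2 adjusted p of 0.0028, and was called in 18 of 22 settings. Ddit3, at 99.7 ± 34.9 in aged and 56.8 ± 23.2 in young livers, was not called. Over the list, 8 log2 fold changes for aged against young were positive and 5 negative, the lowest at -0.77.

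Among the haem genes besides Alas1, Alas2, the erythroid isoenzyme, fell in aged livers, to 1414 ± 358 from a young level of 2140 ± 335, with a log2 fold change of -0.60 (SE 0.18) and a DESeq2 adjusted p of 0.0255, and was called in 15 of 22 settings. It is also 1 of the 6 erythroid markers, which all had negative log2 fold changes for aged against young, median -1.75, with 2 called.

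Of the 12 regulators of Alas1, none was called for aged against young (median log2 fold change -0.27), where 3.58% of all genes tested were. For middle-aged against young, 3 were called higher and 1 lower (median 0.23), where 6.41% of all genes tested were called. For aged against middle-aged, 3 were called lower (median -0.25), where 1.14% of all genes tested were called. Nothing is read from these counts beside the shares, since the list was chosen with earlier results of these data known. The 4 genes with a call are named here. The circadian factors Dbp, Tef and Nr1d2 rose in middle-aged livers and fell between middle-aged and aged ones. For aged against young their log2 fold changes were -0.83, -0.36 and -0.39, none of them called. Dbp had 178 ± 37.6 normalised counts at 3 months, 689 ± 167 at 12 months and 100.2 ± 76.2 at 18 months, with log2 fold changes of 1.95 for middle-aged against young (DESeq2 adjusted p = 0.0142) and -2.78 for aged against middle-aged (DESeq2 adjusted p = 0.000355). Between 12 and 18 months Tef went from 953 ± 169 to 395 ± 136, a log2 fold change of -1.27 with an SE of 0.21 (adjusted p = 5.77e-06 by DESeq2). Nr1d2 went from 688 ± 70.3 to 332 ± 82.8 over the same interval, a log2 fold change of -1.05 with an SE of 0.19 (adjusted p = 3.6e-05 by DESeq2). Egr1, an immediate early factor, fell in middle-aged livers, to 41 ± 13.8 from a young level of 460.4 ± 280.3, with a log2 fold change of -3.49 (SE 0.73) and a DESeq2 adjusted p of 0.000281, and was called in all 22 alternative settings. Dbp was called in 18 of 22 for middle-aged against young, and for aged against middle-aged Dbp and Tef were called in 22 of 22 and Nr1d2 in 21. The hour at which the livers were taken is not given in the sources used here, and the part of these factors in the Alas1 or Clpx values was not tested.

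Cytosolic heat shock chaperones are encoded by classical targets of the heat shock factor. For middle-aged against young, 1 of 11 tested was called, with a median log2 fold change of -0.31. Hsp90aa1 fell, with 3035 ± 463 against 1905 ± 412 normalised counts and a log2 fold change of -0.67 with an SE of 0.20 (adjusted p = 0.0194 by DESeq2, called in 15 of 22 settings), although 1 middle-aged liver, at 2491, overlapped the lowest young one, at 2485. For aged against young the median of 12 was -0.22, and none was called by DESeq2 or edgeR, with 3 at an unadjusted DESeq2 p under 0.05.

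**Figure D4:**
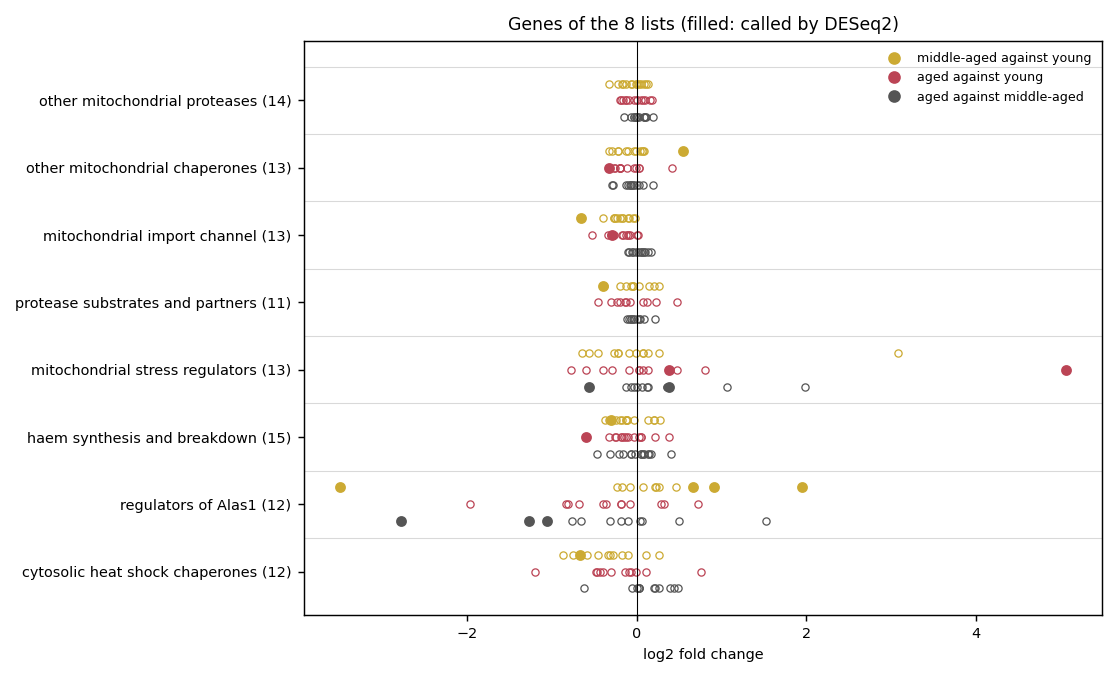
Log2 fold change (x axis) of each gene of the 8 lists (y axis, with the number of genes), in the 3 comparisons of ages, with genes called by DESeq2 filled. The 14 other proteases lie close to 0 with none filled, while the regulators of Alas1 spread from -3.49 to 1.95.

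The genes most like Clpx and Alas1 over the 12 livers were sought among 8888 genes averaging 50 normalised counts or more, by Pearson's r of log2(normalised count + 1), as a description without a p. Clpx was most like Pxmp4 (r = 0.960), Lrfn3 (0.933), Chka (0.932), Arntl (0.922) and Sfpq (0.900). Arntl, an activator of the circadian clock, had 64.7, 58.6, 154 and 136 normalised counts at 3 months, 34.8, 70.9, 88.3 and 44.1 at 12 months, and 106, 121, 249 and 228 at 18 months. Like Clpx it was highest in aged replicates 3 and 4 and lowest in middle-aged replicates 1 and 4. Chka, which starts phosphatidylcholine synthesis, had means of 332, 189.8 and 422 in young, middle-aged and aged livers, and Pxmp4, a peroxisomal membrane protein gene, 752, 619 and 944. Part of each likeness is the age difference that both genes share.

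Alas1 was most like Trib1 (r = 0.916), Wdr45b (0.874), Eri1 (0.872), Pdhx (0.869) and Cbfb (0.848). Trib1, a pseudokinase gene, had 439 normalised counts in middle-aged replicate 1 and 270.0 in aged replicate 1, the livers with the highest middle-aged and the lowest aged Alas1 count. Pdhx, a pyruvate dehydrogenase component, had means of 344, 295 and 257 in young, middle-aged and aged livers. The log2 fold changes of the 5 genes for aged against young ran from -0.56 to -0.18, all smaller in size than that of Alas1.

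**Figure D5:**
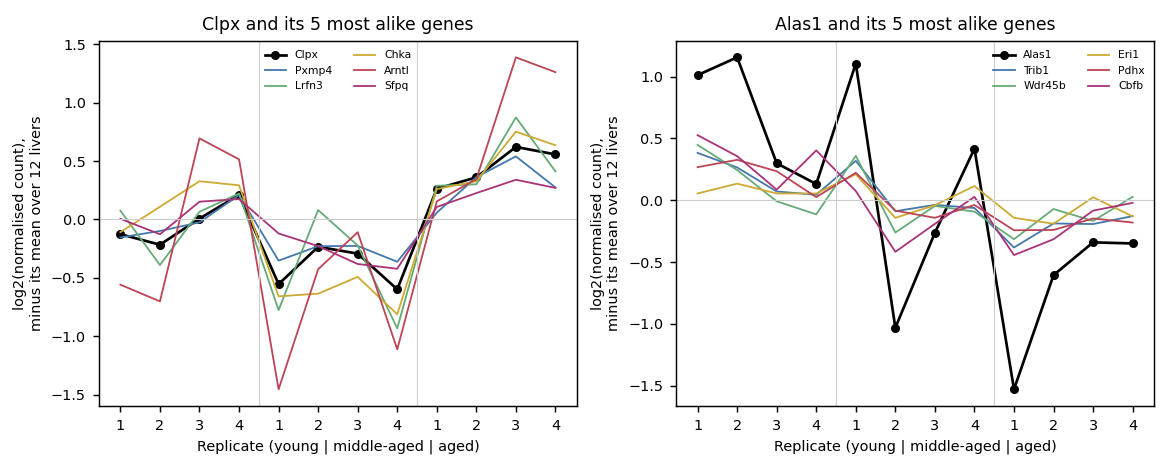
Log2 normalised count of Clpx (left) and Alas1 (right) in each liver, minus the mean over 12 livers (y axis), with the 5 genes most like each, against replicates 1 to 4 of young, middle-aged and aged livers (x axis). Arntl follows Clpx with a larger swing, while the genes most like Alas1 swing less than it does.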

How the data were processed

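The authors deposited whole-number counts per gene for 12 livers, without normalisation. Per the labels' processing notes, the tools include STAR 2.5.2b, SAMtools 1.9 and featureCounts, and the builds mm10 and GRCm38, with no role or order. The annotation release and strand setting of the counting are not given in the sources used here. Groups came from the sample titles and ages. Spike-in rows were left out. Symbols, positions and exonic lengths (union of exons) came from GENCODE M21, which held 53360 of the 53465 gene identifiers.

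The 28449 genes with at least 1 count entered DESeq2 1.42.0 (R 4.3.3), the tool of the study, with its threshold of 0.05. All 12 livers entered 1 fit with age as the only term, default independent filtering, the Wald test and Benjamini-Hochberg adjustment over all genes tested. Normalised counts are counts divided by median-of-ratios size factors. Correlations used SciPy 1.17.1 and Python 3.11.15. Permutation tests were computed for the 6 pairs. None passed the threshold after adjustment in the main setting, while 2 of the 120 values in alternative settings did. Their p-values are not given, since the same counts were known when the pairs were chosen. The p-values measure the spread between 4 animals per age. The scripts were tested on simulated data.

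The members, lists, pairs and motifs were chosen with earlier results of these data known. From each list, up to 4 called genes with the largest fold change in a comparison that calls them were named, and the 10 members whatever their values. Ddit3, Phb2, Oma1 and Spg7 were named after their values were seen. One result on a listed gene is not reported here. Alternatives were edgeR 4.0.16, TMM factors, requiring 10 counts in 4 or more livers, leaving independent filtering off, fitting only the 2 ages compared, a replicate block, fits within each spike-in set and leaving out each liver. An offset for exonic length (lowess, span 0.3) and a fit without the 2 libraries with the most genes detected were chosen after seeing the data. Same-numbered livers did not deviate together (correlations from -0.303 to 0.159 over 8888 genes), so replicate numbers were not taken as pairs.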

Additional observations from a re-analysis of the deposited data

How the results depend on the processing

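The 5 list genes called for aged against young became 0 with edgeR (33 at an unadjusted p under 0.05), 3 with the filter on low counts, 2 without independent filtering, 3 with only the 2 ages compared, 3 with the replicate block, 3 within replicates 1 and 2 and 12 within replicates 3 and 4, and leaving out a liver gave 2 to 24. With TMM factors 5 were called, 3 higher and 2 lower, against 2 and 3, and 4 genes were shared. The 9 for middle-aged against young became 3 with edgeR, 16 with only the 2 ages, 5 with the replicate block and 2 without the 2 libraries with the most genes detected, and leaving out a liver gave 2 to 14. The 5 for aged against middle-aged became 3 with edgeR, 2 and 8 within the 2 spike-in sets and 3 without those 2 libraries. With the offset for exonic length they were 0 higher and 4 lower.

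Of the 10 genes, the 1 called for aged against young became 0 with edgeR and within replicates 1 and 2, and 2 with only the 2 ages, without those 2 libraries and with the length offset, where Alas1 was added each time. Leaving out a liver gave 0 to 2. The 2 called for middle-aged against young became 0 with edgeR, without independent filtering, within replicates 1 and 2 and without those 2 libraries, and 1 with TMM factors, the replicate block and the length offset, where Hspe1 remained. Leaving out a liver gave 0 to 2. For these zeros, 1 to 4 of the 10 had an unadjusted p under 0.05. The call of Clpx for aged against middle-aged was made in all 22 settings. No called log2 fold change of the 10 genes changed sign.

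The correlation of Hspd1 and Hspe1 was -0.29 in CPM, -0.51 within spike-in sets, -0.36 with the replicate block and -0.44 with the length offset, and -0.08 to 0.48 leaving out a liver. With the length offset, Hspd1 and Hspa9 gave -0.05 and Afg3l2 and Yme1l1 -0.28, the latter -0.06 to 0.37 leaving out a liver. Lonp1 and Alas1 gave -0.75 without those 2 libraries, and -0.73 to -0.25 leaving out a liver. The causes were not tested. With 4 livers per age, differences within the spread between livers were not detectable.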
